A study of Mus musculus with 7 samples.

Results

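The effect of dietary glucosylceramide (GC) on skin that had not met detergent was read from 3 arrays. A gene was included when a probe for it, other than a control, was called well above background by the scanner software in 3 or more of these arrays' 6 channels, which gave 16110 of the 27670 genes on the array. Of these, 14495 had a probe well above background in all 6 channels, and 16080 had a value on all 3 arrays. The animals were male HR-1 mice, a hairless strain, 5 weeks old according to the labels. GC-fed mice had received the AIN-93G rodent diet with GC for 12 days and control-fed mice the same diet without GC, and dorsal skin was taken before any sodium dodecyl sulfate (SDS), a detergent. Each array held the RNA of a GC-fed and of a control-fed sample, so there were 3 samples per diet. The GC-fed sample carried the green dye Cy3 on array 1 and the red dye Cy5 on arrays 2 and 3. The other 4 arrays of the series held skin after 14 days of the same diets and 2 days of SDS (10%, 5 min daily), with GC-fed skin in Cy3 on arrays 1 and 2 and in Cy5 on arrays 3 and 4. The replicates are described as biological, without saying whether each was 1 mouse or a pool, so p-values measure the spread between these samples.

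Glucosylceramide is a ceramide with a glucose attached. Keratinocytes make it with the synthase Ugcg, load it into lamellar bodies through the transporter Abca12 and secrete it, and outside the cell it is turned into ceramide, which together with cholesterol and free fatty acids fills the spaces between the dead cells of the outer barrier. Eaten GC is broken down in the gut, and the design asks whether such a diet alters gene expression in the skin. In a 2-colour array the same RNA can read differently in the red and the green channel for reasons that belong to the probe or the dye. In arrays of opposed orientation a difference between diets keeps its sign as GC-fed over control-fed. A difference between dyes keeps its sign as red over green and so turns over on array 1. Only array 1 was reversed here. A dye effect therefore cannot be told apart from a difference particular to the samples of array 1. Below, following the dye or going by dye names this pattern of signs and not its cause.

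All values below are log2 ratios with GC-fed skin over its control-fed partner unless a level is named, and levels are log2 intensities. Of the 43379 spots per array that were not controls, 52.6% to 54.5% were well above background in green and 59.4% to 60.2% in red, and 0 were saturated. Median spot signals were 237.5 to 240.1 in green and 189.7 to 199.3 in red and the local background had medians of 57.5 to 59. By the file headers these 3 arrays lay on 1 slide and were scanned together, and the 4 arrays after SDS lay on a second slide, so SDS and slide cannot be told apart. The SD of the ratios over genes was 0.18 on array 1, 0.25 on array 2 and 0.20 on array 3. All 19 basal keratinocyte markers and all 40 cornified envelope genes tested were well above background in all 6 channels. So were 27 of 28 skeletal muscle genes tested, 25 of 25 macrophage and monocyte genes and 35 of 35 hair follicle genes tested, although the strain is hairless. Inclusion already required 3 channels, and by the probe used 14487 of all 16110 genes tested were well above background in all 6. These counts therefore show detection and do not identify the tissue. In such bulk tissue, fewer cells of a type and less RNA per cell cannot be told apart.

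No gene passed the test of the diet before SDS. In a limma fit over all 7 arrays with a dye term, 0 of 16110 genes (0%) had an adjusted p under 0.05. At an unadjusted p under 0.05 there were 64 genes (0.397%), 38 higher and 26 lower in GC-fed skin, and the lowest adjusted p was 1. The median standard error (SE) of a gene's diet ratio was 0.10, with 4 residual degrees of freedom. The dye term of the same fit also gave 0 genes (0%) after adjustment, with a lowest adjusted p of 0.294, but 2026 genes (12.6%) at an unadjusted p under 0.05, of which 1357 were brighter in red. What follows is therefore a description of the 3 arrays. With 3 arrays, sign flips cannot give a p below 0.25 for any single gene.

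More genes followed the dye than the diet. Counting any size of ratio, 1492 of the 16080 genes with 3 values (9.28%) were higher in GC-fed skin on all 3 arrays and 1545 (9.61%) were lower, together 18.9%. In the pattern of the dye, 4038 genes (25.1%) were brighter in red on all 3 arrays and 2564 (15.9%) brighter in green, together 41.1%. In a further 3751 genes array 2 opposed the others, and in 2690 array 3 did. With a ratio beyond 0.25 required on each array, 32 genes (0.199%) went the same way by diet, 7 of them higher (0.0435%) and 25 lower (0.155%), and 226 (1.41%) followed the dye, 132 of them red (0.821%) and 94 green (0.585%). Array 2 opposed the other arrays beyond 0.25 in 53 genes and array 3 in 32. The count for the diet was thus the same as the count with array 3 opposed. Beyond 0.5 on each array, 6 genes remained by diet and 31 by dye.

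**Figure D1:**
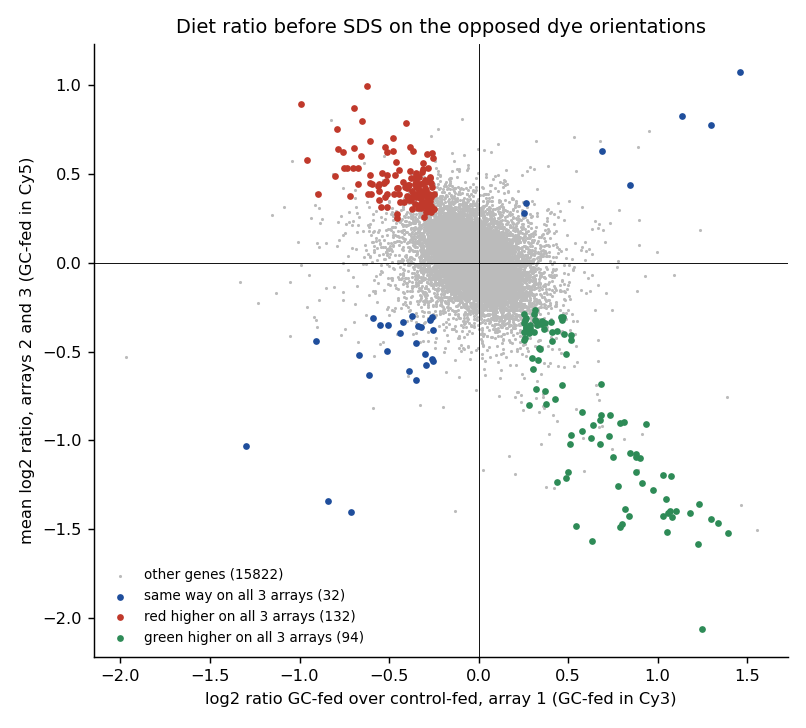
Each point is a gene with 3 values, placed by its diet ratio (log2, GC-fed over control-fed) on array 1 (GC-fed in Cy3, x axis) and by the mean of its ratios on arrays 2 and 3 (GC-fed in Cy5, y axis). Blue points, upper right and lower left, are the 32 genes beyond 0.25 in the same direction by diet on all 3 arrays, and the 132 red and 94 green points, upper left and lower right, are genes beyond 0.25 by dye.

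Over all genes the labelled ratios of array 1 correlated with those of array 2 at r = -0.41 and with those of array 3 at r = -0.18, while arrays 2 and 3, which had the same dye orientation, correlated at r = 0.23. These values are across genes of arrays that share a slide, and genes are not independent replicates. Without the hair genes the 3 values were -0.33, -0.15 and 0.20. Brighter genes filled more of each set. The brightest of 5 equal bins of genes by level held 2 of the 7 higher and 13 of the 25 lower genes, and 70 of the 132 red and 42 of the 94 green genes. The dimmest bin held 0 genes of the diet pattern, 1 red gene and 1 green gene.

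The 7 genes higher on all 3 arrays beyond 0.25 were Rab32, Atf3, Nr4a1, Mmp12, Ccn1, Cyp51 and Penk. The ratio of Penk, which encodes proenkephalin, was 0.25 on its lowest array, just inside the limit, and that of Dusp4, a phosphatase of MAP kinases, was 0.25 just outside it (0.2531 and 0.2484). A second Penk probe gave 0.29, 0.13 and 0.09, and a second Dusp4 probe gave 0.17, 0.06 and 0.02. Of the 7, Atf3 and Nr4a1 were in the list of 28 heat shock and immediate early genes, the latter being genes that cells switch on within minutes of a stimulus. Atf3, a stress-induced transcription factor, read 10.97, 11.07 and 10.10 in the GC-fed samples of arrays 1, 2 and 3 and 9.84, 10.08 and 9.44 in the control-fed samples. Its lowest GC-fed level was just above its highest control-fed level, and the ratios were 1.13, 0.98 and 0.67. The limma estimate was 0.82 with an SE of 0.60. It was 0.21 when array 1 was left out.

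Nr4a1, a nuclear receptor of the immediate early class, had nearly equal ratios, at 0.69, 0.65 and 0.61. Its levels were 13.28, 13.04 and 12.52 in GC-fed and 12.59, 12.40 and 11.91 in control-fed skin, so each GC-fed sample was above its own partner while the groups overlapped. The limma estimate was 0.64 with an SE of 0.22 (unadjusted p = 0.026, adjusted p = 1). Ccn1, a matricellular protein gene that serum and strain induce, gave 0.84, 0.48 and 0.40, with a limma estimate of 0.64 and an SE of 0.27. Mmp12, the macrophage elastase, gave 1.30, 0.48 and 1.07, and its GC-fed levels of 10.61, 11.10 and 10.68 overlapped with control-fed levels of 9.31, 10.62 and 9.61. The control-fed sample of array 2 stood above the other control-fed samples. Rab32, a small GTPase of lysosome-related organelles, gave 1.46, 0.87 and 1.28, but its probe was well above background in 3 of 3 GC-fed channels and in only 1 of 3 control-fed channels, that of array 1. Its levels also differed between arrays by more than between diets, at 11.18, 8.17 and 9.48 in GC-fed and 9.72, 7.30 and 8.20 in control-fed skin.

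Cyp51, the lanosterol demethylase of cholesterol synthesis, had small but separate levels, 11.30, 11.45 and 11.44 in GC-fed against 11.04, 11.06 and 11.16 in control-fed skin. Its ratios were 0.27, 0.39 and 0.28 with a limma estimate of 0.39 and an SE of 0.22. Both other probes of the gene were above 0 on all 3 arrays, at 0.22, 0.43 and 0.47 and at 0.02, 0.51 and 0.45. The latter was thus near 0 on array 1, the array in opposed dye orientation. Atf3 and Cyp51 were the 2 of the 7 genes whose GC-fed levels all lay above the control-fed levels, a separation that 2.8% of all genes showed. The 7 genes had been picked by ratios from the same channels, so that count is a description. Below the limit of 0.25 on some array came Dusp4 (0.31, 0.25, 0.41), the protease inhibitor gene Wfdc12 (0.68, 1.12, 0.25), the glucuronosyltransferase gene Ugt1a1 (0.25, 0.30, 0.38), the small GTPase gene Gem (0.24, 0.33, 0.27), Tlcd2 (0.23, 0.35, 0.29) and Lratd1 (0.28, 0.23, 0.23). Gem and Tlcd2 had unadjusted limma p-values of 0.026 and 0.027, and the adjusted p was 1 for both.

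**Figure D2:**
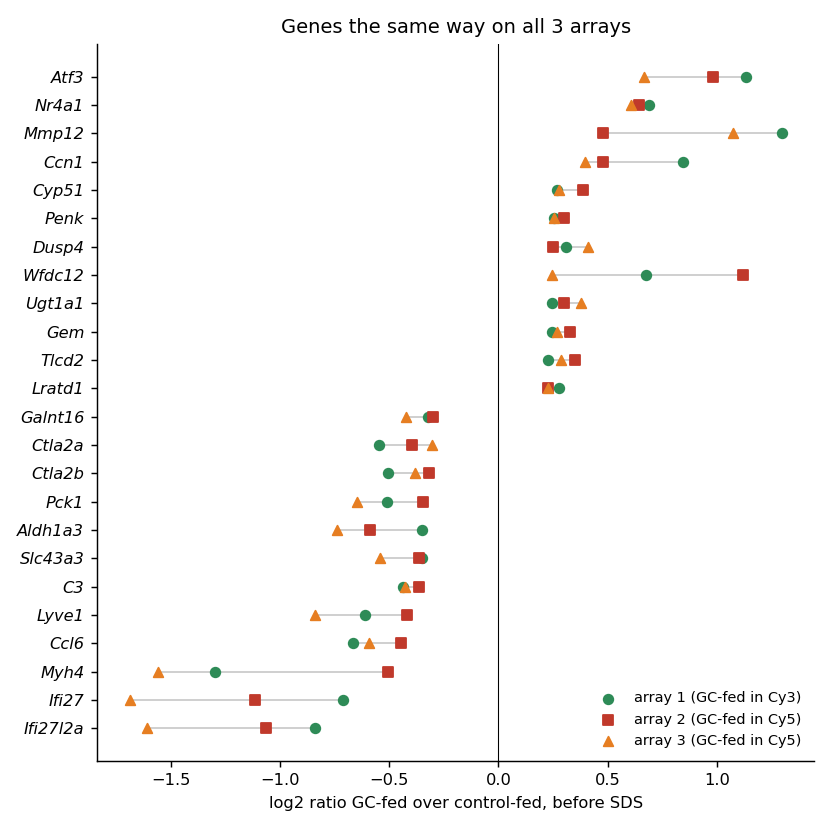
For the 12 genes higher and the 12 genes lower on all 3 arrays that ranked first by the array nearest to 0, points give the diet ratio (log2, GC-fed over control-fed) on each array and the bar spans the 3 values. Nr4a1 had the narrowest range among the genes beyond 0.5, from 0.61 to 0.69, and the ratios of Ifi27l2a and Ifi27 ran from -0.84 to -1.61 and from -0.71 to -1.69.

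Of the 25 genes lower on all 3 arrays beyond 0.25, 9 were in any of the gene lists described below, 4 of them in the list of 41 interferon-induced genes (Ifi27l2a, Irf7, Rtp4 and Oas2). Ifi27l2a, an interferon-induced gene of the mitochondrial membrane, was farthest from 0 on the array nearest to 0. Its levels were 13.03, 13.31 and 12.97 in GC-fed and 13.87, 14.38 and 14.58 in control-fed skin, with no overlap, and the ratios were -0.84, -1.07 and -1.61. A second probe gave -0.69, -1.10 and -1.60. Because the dye term drew on all 7 arrays, where the after-SDS ratios of this gene ran from -0.85 to -6.10, the limma estimate before SDS was -0.72 with an SE of 0.60, and it turned to 0.74 without before-SDS array 1. Its relative Ifi27 gave -0.71, -1.11 and -1.69, but the other probe named Ifi27 gave 0.09, 0.37 and 0.16. The genes are paralogs, and whether the first Ifi27 probe also binds Ifi27l2a RNA was not tested.

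Of the 25 macrophage and monocyte genes 1 was in the set, Lyve1, and of the 31 cytokine and chemokine genes 1, Ccl6. Ccl6, a chemokine of myeloid cells, read 14.02, 14.22 and 14.32 in GC-fed and 14.69, 14.67 and 14.92 in control-fed skin, with ratios of -0.67, -0.45 and -0.59. Lyve1, a hyaluronan receptor of lymphatic endothelium and perivascular macrophages, read 11.36, 11.54 and 11.69 against 11.97, 11.96 and 12.53, with ratios of -0.61, -0.42 and -0.84. A second Lyve1 probe had the same sign at -0.26, -0.38 and -0.50. In both genes all 3 GC-fed samples lay below all 3 control-fed samples. C3, the central complement protein gene, gave nearly equal ratios, -0.44, -0.36 and -0.43, from levels of 15.16, 15.23 and 15.20 against 15.59, 15.59 and 15.62. A second C3 probe gave 0.08, -0.38 and -0.16 and so did not repeat the value of array 1.

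The smallest unadjusted p of the set belonged to Aldh1a3, which makes retinoic acid. Its levels were 10.40, 10.10 and 10.34 in GC-fed and 10.75, 10.69 and 11.08 in control-fed skin, and the ratios were -0.35, -0.59 and -0.74. The limma estimate was -0.54 with an SE of 0.14 (unadjusted p = 0.0061, adjusted p = 1). A second Aldh1a3 probe had the same sign but a smaller ratio on each array, at -0.10, -0.32 and -0.17. Pck1, the gluconeogenesis enzyme that adipocytes use to make glycerol, gave -0.51, -0.35 and -0.65 without overlap of the groups. Ctla2a and Ctla2b, a pair of close paralogs that encode cysteine protease inhibitors and that probes may not tell apart, gave -0.55, -0.40 and -0.30 and -0.51, -0.32 and -0.38. Slc43a3, a purine base transporter gene, gave -0.35, -0.37 and -0.54, and Galnt16, a glycosyltransferase gene, gave -0.32, -0.30 and -0.42.

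Myh4, a myosin heavy chain of fast skeletal muscle, gave -1.30, -0.51 and -1.56, from levels of 12.82, 14.48 and 14.68 against 14.12, 14.99 and 16.24, and the spread between arrays exceeded the difference between diets. The median of the 28 skeletal muscle genes was -0.46, -0.28 and 0.26 on the 3 arrays, so the list did not share the sign of Myh4 on array 3. The part of muscle tissue in that value was not tested. Xirp1, another striated muscle gene, gave -0.26, -0.78 and -0.30. The remaining 12 genes of the set had smallest ratios between -0.25 and -0.30, and they are named here although the choice was made after their values were seen. They were Efhd1, Unc45a, Plac8, Procr, Nxpe5, Irf7, Klhdc10, Timd4, Rtp4, Oas2, Anxa3 and Prdm8. Prdm8 was the last inside the limit at -0.2522 and Isg15 the first outside at -0.2498. In 3 other probes of Klhdc10 the largest negative ratio was -0.12, so that value belonged to 1 probe.

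In 19 of the 25 lower genes every GC-fed level was below every control-fed level, which held for 3.11% of all genes. The set had been picked by ratios from the same channels, so that share is a description. An unadjusted limma p under 0.05 was reached by 4 of the 25 lower genes and 1 of the 7 higher genes, beside 0.397% of all genes, and the ratios that chose these genes enter that p.

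**Figure D3:**
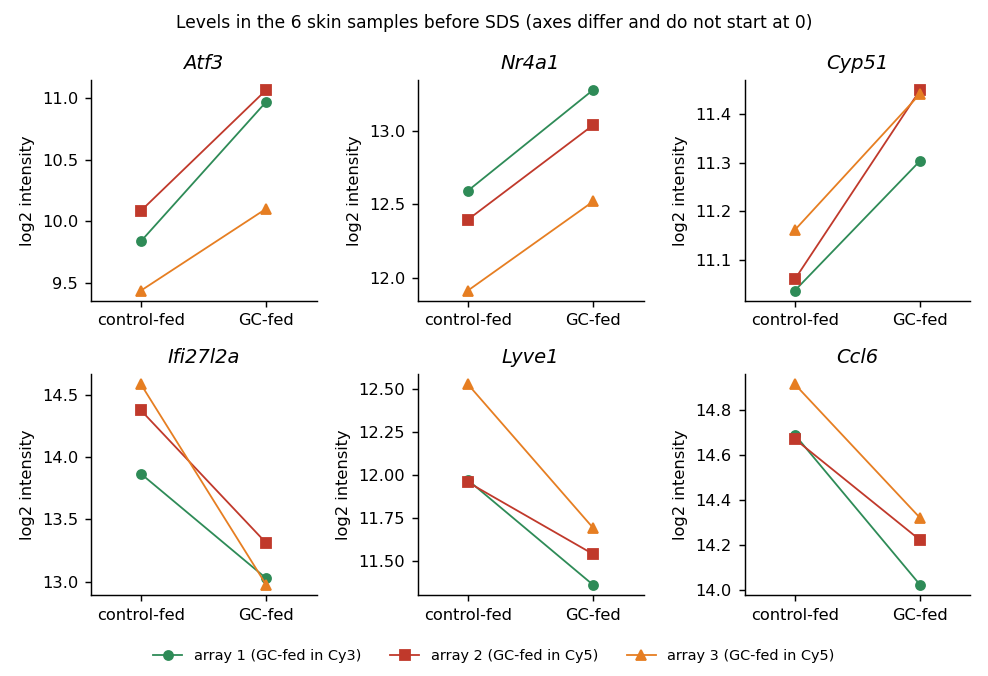
Log2 intensity of 6 genes in the control-fed and GC-fed sample of each array, with a line joining the pair that shared an array; axes differ between panels and do not start at 0. Every line slopes up for Atf3, Nr4a1 and Cyp51 and down for Ifi27l2a, Lyve1 and Ccl6, and in Nr4a1 alone of these 6 the groups overlap.

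The counts depended on the normalization within arrays. With the scanner software's processed signals in place of loess, 112 genes went the same way beyond 0.25, 67 higher and 45 lower against 7 and 25, and with plain median centring 15 did, 13 higher and 2 lower. Of the 7 higher genes 5 and 4 kept the pattern under these settings, and of the 25 lower genes 14 and 2. Median centring leaves the dye's dependence on brightness in the data: it moved the median of all genes from -0.02, 0.01 and 0.02 to -0.44, 0.44 and 0.54.

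The same genes were then read on the after-SDS arrays. Of the 25 lower genes, 21, 17, 23 and 6 were lower on after-SDS arrays 1 to 4, where 58.4%, 53.3%, 47.6% and 46.1% of all genes were. On all 4 after-SDS arrays 3 of the 25 (12.0%) were lower, beside 4.56% of all genes. These were Ifi27l2a, its paralog Ifi27 and Irf7, and the ratios of Irf7 were -0.0004 and -0.0096 on arrays 1 and 2. Of the 7 higher genes, 4, 2, 3 and 3 were higher on those arrays, where 41.6%, 46.7%, 52.4% and 53.9% of all genes were. On all 4 of them 0 of the 7 were higher, beside 3.28% of all genes. Atf3 gave -0.70, -2.10, -1.71 and 1.38 there, Mmp12 gave -1.16, -3.19, -2.62 and 1.78, and Ccl6 gave -1.30, -0.92, -1.48 and 1.31, so array 4 opposed arrays 1 to 3 in each of these genes. Ifi27l2a was lower on all 4, at -2.03, -0.85, -5.08 and -6.10. The difference between the diet effects after and before SDS, tested in the same limma fit, passed for 0 of 16110 genes (0%), with 192 (1.19%) at an unadjusted p under 0.05. Among the named genes, the difference was, for example, -2.79 for Ifi27l2a, -1.18 for Ccn1 and -1.01 for Nr4a1. Their unadjusted limma p-values were 0.0096, 0.014 and 0.012, and the adjusted limma p was 0.9998 for each. Gpd1, of the adipocyte list, had a smaller unadjusted limma p of 0.0017 at a difference of -0.54, with the same adjusted p. Ifi27l2a, Ccn1 and Nr4a1 had been picked by their ratios before SDS, which enter this difference, so their values are a description.

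Groups of genes were then read through 32 lists, of which 734 of 807 genes were tested. A list is described by its median on each array beside the medians of all genes, -0.02, 0.01 and 0.02, and by how many members went the same way on all 3 arrays, beside 9.28% higher and 9.61% lower of all genes. The medians of 7 lists had 1 sign on all 3 arrays, 3 did with processed signals and 0 with median centring. Of the 734 genes, 0 passed the adjusted test.

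The genes of cholesterol synthesis stood highest. Their medians were 0.18, 0.19 and 0.07 over 26 genes, and 14 genes were higher on all 3 arrays and 0 lower. The list runs from Acat2, which makes acetoacetyl-CoA, through Hmgcs1, which makes hydroxymethylglutaryl-CoA, and the squalene synthase Fdft1 to Cyp51 and later steps. Acat2 gave 0.12, 0.31 and 0.38, with an unadjusted limma p of 0.041 (adjusted p = 1). Fdft1 gave 0.15, 0.15 and 0.12. A member that went with the dye was Ggps1, the geranylgeranyl diphosphate synthase, at -0.27, 0.25 and 0.19. The order of the samples was the same in each pair: the centred level of the list was 0.11, 0.10 and -0.01 in GC-fed and -0.05, -0.07 and -0.11 in control-fed skin. With processed signals 16 genes were higher on all 3 arrays, but under median centring the list read -0.49, 0.79 and 0.91 and 0 genes were. Relative to the median of all genes under that setting, array 1 was then slightly below 0 and arrays 2 and 3 above it.

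Fatty acid synthesis and sebaceous gland genes leaned the same way, with medians of 0.07, 0.22 and 0.08 and 10 of 22 genes higher on all 3 arrays and 0 lower. Acly, which makes cytosolic acetyl-CoA, gave 0.27, 0.15 and 0.20, Acacb, an acetyl-CoA carboxylase, 0.09, 0.10 and 0.08, and Soat1, which esterifies cholesterol, 0.59, 0.13 and 0.11. The other Acacb probe gave 0.02, -0.01 and 0.00, and of 3 other Soat1 probes 1 was higher on all 3 arrays. Awat2, a wax synthase of the sebaceous gland, followed the dye at -0.33, 0.21 and 0.45. With processed signals the median of this list on array 1 was -0.01, and under median centring it was -0.61. The barrier lipid list had medians of 0.08, 0.20 and 0.06, with 6 of 30 genes higher on all 3 arrays and 0 lower. Elovl4, the elongase of the very long fatty acids in barrier ceramides, gave 0.21, 0.41 and 0.22, and Hsd17b12, a reductase of the same elongation cycle, 0.36, 0.28 and 0.16. The elongase Elovl7 went by dye at -0.29, 0.58 and 0.33, though its limma dye term over all 7 arrays was -0.11 (SE 0.20). Under median centring this list read -0.59, 0.83 and 0.77.

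The genes of glucosylceramide and ceramide metabolism had medians of 0.03 and 0.09 on arrays 1 and 2 and 0 on array 3 over 42 genes. On all 3 arrays 8 of them (19.0%) were higher, 0 lower, 4 brighter in red and 8 brighter in green. Ugcg was nearly level at 0.02, 0.03 and 0.01, with a limma estimate of 0.04 and an SE of 0.09. Other Ugcg probes gave 0.01, -0.20 and -0.05 and -0.01, 0.07 and -0.03. Abca12 gave -0.18, 0.44 and -0.09 and so did not keep a sign. Among the enzymes of new synthesis, the serine palmitoyltransferase subunits Sptlc1 and Sptlc2 gave 0.18, 0.25 and 0.01 and -0.11, 0.02 and -0.03. Kdsr, the next enzyme of the pathway, was higher on each array at 0.21, 0.42 and 0.28, and of its 2 other probes 1 was higher on all 3 arrays. Degs1, the desaturase that completes ceramide, gave 0.26, 0.09 and -0.43, and Cers2, a ceramide synthase, 0.03, 0.10 and 0.16. Sgpp2, a phosphatase of sphingosine phosphate, gave 0.12, 0.47 and 0.16, with an unadjusted limma p of 0.046 (adjusted p = 1). The epidermal ceramide synthase Cers3 had no probe by that name among the genes tested.

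**Figure D4:**
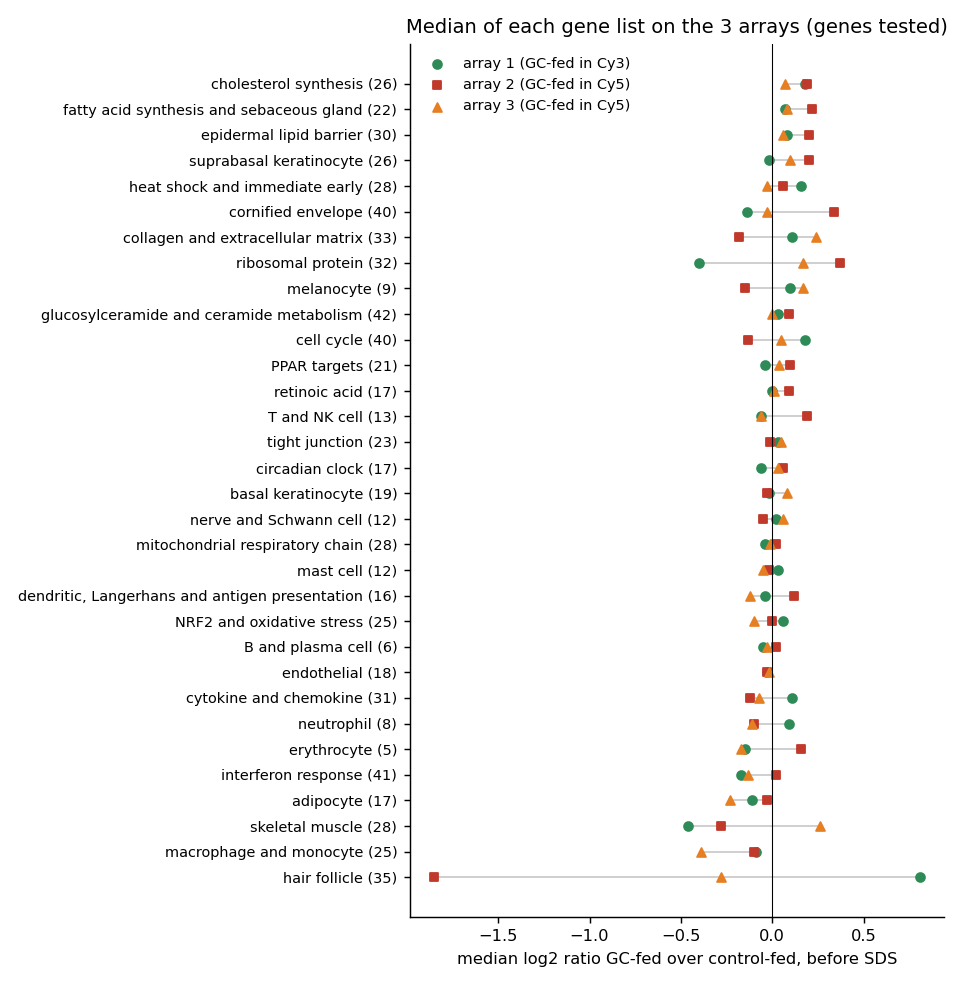
Points give the median diet ratio (log2, GC-fed over control-fed) of each of the 32 lists on each array, with the number of genes tested in brackets, ordered from the highest to the lowest mean of the 3 medians. Cholesterol synthesis is at the top with 0.18, 0.19 and 0.07, and the widest bars, hair follicle and ribosomal protein, have array 1 on the opposite side of 0 from arrays 2 and 3.

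Genes of the keratinocyte itself mostly split by array. The 40 cornified envelope genes had medians of -0.14, 0.34 and -0.03, with 2 higher on all 3 arrays, 0 lower, 14 brighter in red and 7 brighter in green. Lor, which encodes the main envelope protein loricrin, gave -0.51, 0.59 and 0.40, and its levels of 16.70, 17.15 and 17.17 in GC-fed against 17.21, 16.56 and 16.77 in control-fed skin put the red channel above the green on each array. Flg, the gene of filaggrin, gave -0.15, 0.61 and 0.42, and its relative Flg2 -0.37, 0.34 and 0.47. Ivl (involucrin) gave 0.02, 0.15 and -0.47, and the cross-linking enzyme Tgm1 -0.02, -0.14 and 0.11, with limma estimates within 0.03 of 0 (SE 0.25 and 0.22). Of the keratins of the dividing layer, Krt5 gave -0.24, 0.27 and 0.49 and Krt14 -0.31, 0.39 and 0.67, again in the pattern of the dye. The limma dye terms over all 7 arrays were 0.06 for Krt5 and 0.14 for Krt14 (SE 0.14 and 0.16). For Flg the dye term was -0.32 (SE 0.30), and the median dye term of the cornified envelope list was -0.20, the sign of green. Those of the layers above gave 0.12, 0.48 and -0.27 for Krt1, and -0.85 and 0.93 for Krt10, whose spot on array 2 had been removed as an outlier, so its fit used the other arrays. The other Krt10 probe had 3 values and followed the dye at -0.29, 0.59 and 0.86. The other Krt1 probe gave -0.04, -0.05 and 0.00. The medians of the 23 tight junction genes were 0.03, -0.01 and 0.05. Cldn1, the claudin whose loss breaks the epidermal barrier, gave 0.19, 0.03 and -0.18, but its other probe gave 0.08, 0.24 and 0.25. Ocln, the gene of occludin, gave 0.13, 0.19 and 0.34.

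Interferon-induced genes were lower on arrays 1 and 3 and not on array 2. Interferons act through factors such as Stat2 and Irf9, which bind a response element in the promoters of such genes. The medians of the 41 genes were -0.17, 0.02 and -0.13, and 4, 23 and 7 genes were higher on arrays 1, 2 and 3. On all 3 arrays 15 genes were lower and 0 higher. Irf7, a transcription factor that amplifies the response, gave -0.27, -0.28 and -0.36, Rtp4 gave -0.39, -0.26 and -0.97, and Oas2, a sensor of double-stranded RNA, gave -0.26, -0.26 and -0.36. Isg15, a ubiquitin-like modifier, gave -0.47, -0.25 and -0.30 from levels of 9.01, 9.01 and 9.14 against 9.48, 9.26 and 9.44, with no overlap and an unadjusted limma p of 0.016 (adjusted p = 1). Igtp, an interferon-gamma-induced GTPase, went by dye at -0.42, 0.09 and 0.34, and Bst2, an antiviral tether, was lower on array 3 alone at 0.07, 0.19 and -0.86. With processed signals 9 genes of the list were lower on all 3 arrays, and under median centring 1 was.

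The promoters of these genes carry the element to different degrees. Windows from 250 bases before to 50 after the start were taken from RefSeq on GRCm38.p6, which held 27025 genes and 10993 of the 16110 tested. The core of the interferon-stimulated response element, searched on either strand as GAAA, any 2 bases and GAAA, occurred in 15 of the 29 list genes with a window (51.7%), in 3.68% of all tested genes with a window and in 3.99% of all windows. Of the 15 list genes with the letters 4 were lower on all 3 arrays, and of the 14 without them 5 were. Of the 389 other tested genes with the letters 36 were. Stretches of 3 of these genes, picked after their values were seen, show the arrangement, with matches in capitals: Isg15 at chr4:156200835-156200936 (minus strand), Oas1a at chr5:120907526-120907585 (minus strand) and Stat2 at chr10:128270248-128270325 (plus strand).
Isg15: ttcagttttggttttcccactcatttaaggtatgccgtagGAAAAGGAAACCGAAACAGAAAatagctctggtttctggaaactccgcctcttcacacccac
Oas1a: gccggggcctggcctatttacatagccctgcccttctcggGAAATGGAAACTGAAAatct
Stat2: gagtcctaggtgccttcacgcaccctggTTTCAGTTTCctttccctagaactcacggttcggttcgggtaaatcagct
Isg15 held 3 overlapping matches and Oas1a held 2, while Stat2 held 1 on the opposite strand. Oas1a, an RNA sensor, gave -0.42, -0.07 and -0.26, and Stat2 gave -0.05, -0.26 and -0.51. In the cholesterol list a sterol regulatory element, searched as TCACNCCAC, was found in 1 of 18 windows, that of Hmgcs1, and in 1.44% of all windows. It lay at chr13:119690174-119690262 (plus strand), and Hmgcs1 gave 0.24, 0.20 and 0.08. Of 2 other Hmgcs1 probes 1 was higher on all 3 arrays, and the other gave -0.01, 0.14 and -0.07.
Hmgcs1: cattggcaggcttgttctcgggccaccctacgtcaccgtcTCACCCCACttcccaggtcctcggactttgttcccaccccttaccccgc
The cyclic AMP response element TGACGTCA was found in 2 of 21 immediate early and heat shock genes, Dusp1 and Btg2. It was in 3.34% of all tested genes with a window and in 2.03% of all windows.

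Macrophage and monocyte genes leaned lower, most clearly on array 3 and hardly more often than all genes on array 1. Of the 25 genes, 14, 18 and 21 were lower on arrays 1, 2 and 3, beside 9111, 7541 and 7135 of all 16110 genes. Their medians were -0.09, -0.10 and -0.39 over 25 genes, with 10 lower and 2 higher on all 3 arrays, and with 1 brighter in red and 7 in green on all 3. C1qb and C1qc, chains of the complement protein C1q that tissue macrophages secrete, gave -0.18, -0.51 and -0.72 and -0.14, -0.32 and -0.43. Fcer1g, a signalling chain of Fc receptors, went by dye at 0.14, -0.18 and -0.52, though its other probe was near 0 on array 1 and gave -0.02 and -0.41 on arrays 2 and 3. Cd14, the co-receptor for bacterial lipopolysaccharide, went by dye at 0.11, -0.43 and -0.40. Over all 7 arrays the limma dye terms of Fcer1g and Cd14 had the sign of red, at 0.28 and 0.18 (SE 0.30 and 0.35). The centred level of the list was -0.17, -0.04 and -0.04 in GC-fed and -0.05, 0.08 and 0.26 in control-fed skin, so the control-fed sample of array 3 stood above the rest. With processed signals the median of array 2 became 0.04 and 7 genes were lower on all 3 arrays, and under median centring 0 were. Of 31 cytokine and chemokine genes, 7 were lower and 2 higher on all 3 arrays, with medians of 0.11, -0.12 and -0.07. Besides Ccl6, the chemokines Ccl8 (-0.70, -0.23, -0.44) and Ccl9 (-0.33, -0.21, -0.68) were lower on each.

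Of the 28 heat shock and immediate early genes, 5 were higher and 3 lower on all 3 arrays, with medians of 0.16, 0.06 and -0.03. Beside Atf3 and Nr4a1, the heat shock gene Hspb1 was lower at -0.07, -0.13 and -0.08, and Egr1, the best known immediate early factor, was higher on all 3 arrays, mainly on array 1, at 0.89, 0.14 and 0.05. The 40 cell cycle genes were higher on arrays 1 and 3 and lower on array 2, with medians of 0.18, -0.13 and 0.05. On array 1, 36 of them were higher, and on array 2, 8 were. Ccnb1 (cyclin B1) gave 0.36, 0.07 and 0.21, and of its 2 other probes 1 was higher on all 3 arrays. Among the other cell types, the medians of the 18 endothelial genes were -0.03, -0.03 and -0.02, but Edn1, which encodes the vasoconstrictor endothelin 1, was evenly lower at -0.32, -0.30 and -0.25, with an unadjusted limma p of 0.0058 (adjusted p = 1). The 17 adipocyte genes had medians of -0.11, -0.03 and -0.23, with 4 lower and 1 higher on all 3 arrays. Of the oxidative stress genes, Nqo1, a quinone reductase, gave 0.12, 0.30 and 0.27, and Mt2, a metallothionein gene, gave -0.40, -0.11 and -0.37.

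Hair genes made up the largest family of the dye pattern. Of 39 keratin-associated protein genes (Krtap), which encode the matrix of the hair shaft, 38 were brighter in green on all 3 arrays, 25 of them beyond 0.25, and the family's medians as GC-fed over control-fed were 0.68, -1.81 and -0.41. Krtap4-13 gave 1.25, -2.49 and -1.64, Krtap3-1 gave 1.22, -2.23 and -0.94, and Krt86, a hair shaft keratin, 1.10, -2.09 and -0.70. In the limma fit over all 7 arrays their dye terms were -0.23, -0.33 and -0.43, with SEs of 0.49, 0.41 and 0.31. The levels also differed between samples: Krtap4-7, at ratios of 1.05, -1.93 and -1.09, read 11.36, 10.57 and 9.98 in GC-fed and 10.31, 12.50 and 11.07 in control-fed skin, highest by far in the control-fed sample of array 2. The same sample stood out in the hair follicle list, whose centred level was 1.29 there and between -0.59 and 0.30 in the other 5 samples. With processed signals 35 of the 39 Krtap genes were brighter in green on all 3 arrays, and under median centring 16 were brighter in green on all 3 arrays and 1 in red, with medians of 0.19, -1.27 and 0.01. Hair genes were 37 of the 94 genes brighter in green beyond 0.25. Others of the set were Timp1, a metalloproteinase inhibitor gene, at 0.68, -0.84 and -0.52, and S100a3, a calcium-binding protein gene of the hair cuticle, at 0.88, -1.97 and -0.38.

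Ribosomal protein genes led the red side. Of 85 genes by symbol, 44 were brighter in red on all 3 arrays, 22 beyond 0.25, and 28 more were brighter in red on arrays 1 and 2 and in green on array 3. The medians were -0.39, 0.37 and 0.04. Rpl41 gave -0.99, 0.93 and 0.86, Rps14 gave -0.70, 1.04 and 0.70, and Rpl12 gave -0.76, 0.73 and 0.52. Their dye terms in the limma fit were 0.94, 0.60 and 0.56 with SEs of 0.09, 0.09 and 0.07, and their diet terms were -0.05, 0.14 and -0.02. Rpl41 had no usable spot on after-SDS arrays 1 to 3, so its fit drew on 4 arrays. Other bright genes of the set were Calm4, an epidermal calmodulin-like gene, at -0.65, 0.99 and 0.61, Calm2 (calmodulin) at -0.46, 0.57 and 0.57, and Uqcrh, a respiratory chain subunit, at -0.66, 0.54 and 0.66. The limma dye term was 0.40 for Calm2 (SE 0.06) but -0.10 for Calm4 (SE 0.38). Col1a2, a chain of type I collagen, gave -0.41, 0.59 and 0.99, but its other probe gave 0.05, 0.06 and 0.07 and did not follow the dye. Sbsn (suprabasin) gave -0.47, 0.49 and 0.49, while its other probe gave 0.51, -0.35 and -0.36, so the 2 probes of this gene followed opposite dyes.

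**Figure D5:**
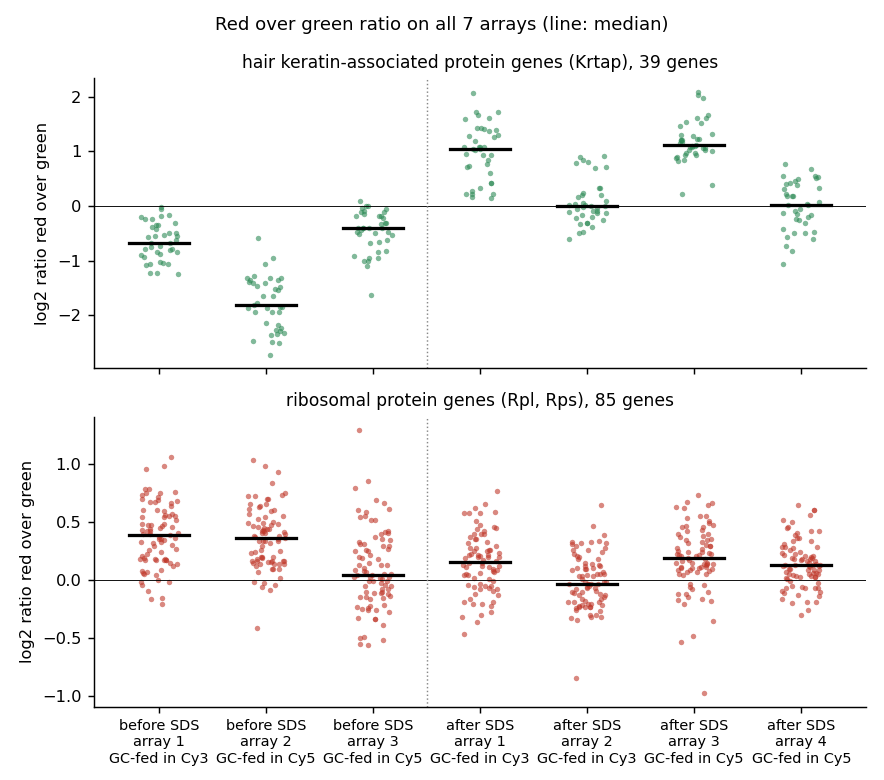
Each point is a gene's log2 ratio of red over green on each of the 7 arrays, for 39 Krtap genes (top) and 85 ribosomal protein genes (bottom), and the line is the median. Krtap medians are below 0 on the 3 before-SDS arrays (-0.68, -1.81, -0.41) and above 0 on after-SDS arrays 1 and 3, and ribosomal medians are above 0 on the before-SDS arrays (0.39, 0.37, 0.04).

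The after-SDS arrays separated these families. Of 68 hair genes, 98.5%, 36.8%, 98.5% and 45.6% were brighter in red on after-SDS arrays 1 to 4, beside 58.4%, 53.3%, 52.4% and 53.9% of all genes, so the green excess of the before-SDS arrays was absent there on arrays 1 and 3. Of the ribosomal protein genes, 71.2%, 45.2%, 80.7% and 77.6% were brighter in red there. Of the 126 genes of the red set with a value on every after-SDS array, 40 (31.7%) were brighter in red on all 4, beside 13.9% of all genes. Of the 94 genes of the green set, 10 (10.6%) were brighter in green on all 4, beside 8.59% of all genes, and 12 (12.8%) were brighter in red on all 4. An unadjusted p under 0.05 for the dye term was reached by 86 of the 132 genes of the red set and by 21 of the 94 of the green set, beside 12.6% of all genes. The values that chose these sets enter that term.

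Some large ratios belonged to a single array, with both other arrays within 0.25 of 0. Array 1 alone had Cspg4, a pericyte proteoglycan gene, at 1.24, the chemokine gene Cxcl3 at 1.09 and the inflammatory cytokine gene Il1b at 0.93, and, on the lower side, the cytochrome P450 gene Cyp3a13 at -0.99 and the muscle genes Pvalb (parvalbumin) and Trim63 at -0.95 and -0.89. The median of muscle genes was lowest on that array, at -0.46. Array 2 alone had the hair genes Krtap19-3 and Krtap19-2 at -2.47 and -2.27, and, on the upper side, Serpinb12, an epidermal protease inhibitor gene, at 1.02 and Hyal4, a hyaluronidase family gene, at 0.86. Array 3 alone had Rpsa, a ribosomal protein gene, at 1.30, Irs1, an adaptor of the insulin receptor, at 1.02, Cebpd, a transcription factor gene, at -0.95, and Fcna, a ficolin of macrophages, at -0.89. A second probe of Trim63 gave -0.19 on array 1 and -0.42 on array 2. A second probe of Rpsa gave 0.18 on that array, and a second probe of Irs1 gave 0.02. H2-Eb1, a class II antigen-presenting gene that differs between mouse haplotypes, was -0.13, -2.52 and -0.28.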

How the data were processed

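RNA of GC-fed and control-fed mouse skin was compared on 2-colour Agilent whole mouse genome arrays. Per the file headers, the deposited scanner files hold spot intensity from Feature Extraction 9.1.3.1: mean signal, local background median and a processed signal already corrected for background and dye. Per the labels, 500 ng of total RNA was amplified and labelled with Cy3 or Cy5. The authors' own table of gene-level values holds floored intensity and a log2 ratio of signal over control, whose sign was turned on arrays with GC-fed skin in Cy3, as its values showed. It served as an alternative for 10414 genes.

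Mean signals were corrected with normexp (offset 50) and normalized by loess in limma 3.58.1 under R 4.3.3, with control spots at weight 0. Spots marked non-uniform or population outlier were removed, 9 to 27 per before-SDS array. Levels are Aquantile-normalized log2 intensities. Of the 41174 probes, 22944 were named by accession, 6664 by current symbol and 3108 by older symbol, and 8458 kept the file's name. Of 23462 probes that passed the background filter, the brightest per gene was used. Ratios of all 7 arrays entered lmFit and eBayes with diet coefficients before and after SDS and a dye term, with Benjamini-Hochberg adjustment over all genes tested. The procedure was tested on simulated data.

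Genes were named by rule, from probes well above background in all 6 channels and with ordinary symbols. The rule took the 12 genes per direction ranked by the array nearest to 0, by diet and by dye, and the 4 per array and direction that stood apart there alone. It also took up to 3 genes of each kind per list and 16 fixed barrier genes. A further 17 genes were added after their values were seen. The gene lists and tests were chosen with earlier results of these data known. Replicate numbers were not used to pair before-SDS with after-SDS arrays in the main fit. Same-numbered arrays deviated together at r = -0.09, -0.04 and 0.19, and arrays of unlike number at r from -0.09 to 0.16. With the replicate number as a random block, the correlation within a block was 0.255. These values are across genes and so few that they cannot decide whether the numbers pair the arrays. Alternatives covered background correction, normalization, filter, probe choice, dye term, variance model, block and single arrays. The number of arrays limits the precision.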

Additional observations from a re-analysis of the deposited data

Results flagged for a closer look

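No measure within the 3 before-SDS arrays could be screened for a stray array, since 3 values are too few. Among the 4 after-SDS arrays, 3 of the 32 list medians of GC-fed over control-fed skin had 1 array far from the others. Chance alone marks about 1 in 20 such groups, so some of the 32 would be marked by chance. The mast cell median was -0.63 on array 3 and between -0.15 and -0.13 on the others, while before SDS it was 0.03, -0.02 and -0.05. The endothelial median was -0.42 on array 3 and between -0.05 and -0.02 on the others, beside -0.03, -0.03 and -0.02 before SDS. The collagen and extracellular matrix median was 0.57 on array 4 and between -0.20 and -0.11 on the others, beside 0.11, -0.18 and 0.24 before SDS.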

How the results depend on the processing

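The diet effect before SDS gave 0 genes in the main fit and under all 21 alternatives. The count of genes the same way on all 3 arrays stayed within 1.5 times under 7 alternatives and moved further under 7. The same held for the count of genes that followed the dye. The count of lists with 1 sign stayed under 7 alternatives and moved under 5. The dye term gave 0 genes in the main fit, 9 with processed signals and 12326 with median centring, which leaves the colour bias in. The difference after minus before SDS gave 0 genes, and between 0 and 56 with single arrays left out, the 56 without after-SDS array 4. The 32 genes the same way on all 3 arrays became 112 with processed signals, 15 with median centring, 327 at a limit of 0.1, 6 at 0.5, and 160 to 558 with 1 array left out, when only 2 arrays need to go the same way. The 226 genes that followed the dye became 1175, 9833, 1678, 31, and 471 to 694 in the same order. The 7 lists with 1 sign on all arrays became 3 with processed signals, 0 with median centring and 12 to 19 with 1 array left out. Single genes that reversed without before-SDS array 1, when the dye term rests on the after-SDS arrays, were Ctla2a, Ctla2b, Ifi27l2a and Mmp12, whose estimates ran from -0.47 to 0.077, -0.45 to 0.0025, -1.23 to 0.74 and -0.10 to 1.19 with single arrays left out. Ifi27 reversed to 0.13 with processed signals and to 0.13 in the deposited table, where the probes of a gene enter differently; the cause was not tested. With the replicate number as a random block 0 genes passed before SDS and for the dye term. For the difference the block was instead a fixed term in a separate limma fit, where 0 genes passed and the lowest adjusted limma p was 0.0717. Correlations without hair genes were chosen after seeing the data. Probes near background compress ratios, so small differences of dim genes were not detectable.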
